A study of Mus musculus with 3 samples.

Results

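CCGG sites in promoter flanks are methylated CCGG tetranucleotides that lie between 1 and 3 kb from the nearest protein-coding transcription start and more than 1 kb from every annotated start. Sites of the autosomes listed by MethylRAD in any library were taken, with distances measured to the starts of GENCODE M21 basic transcripts on GRCm38. This rule gave 54551 sites of the 969569 autosomal CCGG sites listed in the series. Its distance limits used position only, but a site also had to be listed, which required at least 5 reads in at least 1 library. They included 44950 sites in undifferentiated cells, 46093 in untreated differentiated cells and 47905 in treated differentiated cells. The undifferentiated sample was E14Tg2A, an established line of mouse embryonic stem cells (ESCs) kept in an undifferentiated state by leukemia inhibitory factor (day 0). The untreated sample was the same line on day 7 after that factor was withdrawn and retinoic acid was added. The treated sample was also taken on day 7 and received 3 mM pargyline (PG), an inhibitor of the histone demethylase LSD1, around the onset of differentiation. All samples therefore came from 1 cell line, with 1 library per condition, so that no difference between conditions has a replicate check or a test. The autosomal CCGG reads numbered 30438782, 35286914 and 24778383 in the undifferentiated, untreated and treated libraries, respectively, and all values below are given in this order.

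DNA methylation in mammals is placed mostly on cytosines followed by guanine, and the CpG-dense sequence at many starts is kept free of it. The flank of a CpG island, often called its shore, is where the unmethylated state gives way to the methylated state of the surrounding genome, and shores are known to differ between cell types. In ESCs the pluripotency genes are unmethylated at their regulatory sequence and acquire methylation after differentiation begins, whereas many developmental regulators, including the Hox genes, lie in wide CpG-dense domains held by Polycomb proteins. MethylRAD uses FspEI, an enzyme that cuts at a distance from a methylated cytosine and releases a short fragment centred on the site. A site is listed when at least 5 reads were counted there, so an unlisted site had between 0 and 4 reads, and the count follows both methylation and how well the fragment was released, amplified and mapped.

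Individual sites are shown first, because their sequence and position carry the reads. In each 30-base window below, read from the forward strand of GRCm38, the CCGG motif is in capitals. The 6 flank sites of Pou5f1, which encodes the pluripotency factor OCT4, are given with 1 upstream site followed by 5 downstream sites in introns.
Pou5f1 at -2615 bp, chr17:35503390-35503419: gttgggaccgcacCCGGcccaaagtgactc
Pou5f1 at 1237 bp, chr17:35507242-35507271: ataccgatgcccgCCGGgagttccgacagc
Pou5f1 at 2031 bp, chr17:35508036-35508065: tcctctgcaccctCCGGccagtaccgcatc
Pou5f1 at 2169 bp, chr17:35508174-35508203: ttttcttcgcactCCGGagtgttgtcagct
Pou5f1 at 2497 bp, chr17:35508502-35508531: tgggaattgaactCCGGatctccggaagag
Pou5f1 at 2505 bp, chr17:35508510-35508539: gaactccggatctCCGGaagagaagtccgt
The upstream Pou5f1 site had 0, 25 and 21 reads in the undifferentiated, untreated and treated samples. The site at 1237 bp had 0, 13 and 6 reads, the site at 2031 bp had 12, 30 and 23 reads, and the site at 2169 bp had 0, 18 and 27 reads. Only 1 of the 6 sites was thus listed in undifferentiated cells, and all 6 were listed in untreated cells. The last pair of sites lies 8 bp apart, closer than the length of a fragment, and both sites had 0, 10 and 0 reads, so their reads may not be independent.

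Lost sites are shown next, as the pair with the most reads among those listed in undifferentiated cells alone (Cfap20 and Cnn1) and the pair with the most among those missing only from the treated list (Hddc2 and Pyy). All were in windows of low CpG content.
Cfap20, intron, chr8:95432274-95432303: ggagggagtggaaCCGGtgagtgagcctgg
Cnn1, intron, chr9:22101916-22101945: aaagtcgatgtcaCCGGtgtctccacactg
Hddc2, exon, chr10:31314570-31314599: cagatcacatgtaCCGGatggcagttatgg
Pyy, upstream, chr11:102110458-102110487: ccatcatcatcgaCCGGtgactcagcctcc
The site of Cfap20, a gene for a ciliary protein, had 109, 0 and 0 reads, and that of Cnn1, which encodes the smooth muscle protein calponin, had 89, 0 and 0 reads. The site of Hddc2 had 127, 19 and 0 reads, and the site upstream of Pyy, the gene for the gut hormone peptide YY, had 137, 8 and 0 reads. Among sites absent from undifferentiated cells and listed in both day 7 samples, the largest counts fell in repeat-masked sequence, with 0, 36 and 79 reads upstream of Tmem211 and 0, 60 and 51 reads upstream of Gm13420.

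The reference held 72261 CCGG motifs in the flanks, or 4.76% of the autosomal motifs, and 54549 of them were listed in at least 1 library. The other 17712 motifs (24.5%) were in no list. Of the 54551 sites, 31976 were downstream of the start and 22575 upstream. Introns held 28465, intergenic sequence 14969, exons 8440, 3′ UTRs 2243 and 5′ UTRs 434 of them. Windows of 500 bp were classed as of low, intermediate or high CpG content, where high required a ratio of observed to expected CpG above 0.75 and a GC content over 55%, and low required a ratio below 0.48. By this measure 47459 sites were in low, 5932 in intermediate and 1153 in high CpG windows. A further motif within 32 bp was found for 5594 sites (10.3%).

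The listed share of flank motifs was 62.2%, 63.8% and 66.3% in the undifferentiated, untreated and treated samples, with 95% Wilson intervals of 61.9 to 62.6, 63.4 to 64.1 and 65.9 to 66.6. The intervals describe counting error alone, because amplified copies of a fragment cannot be told from separate molecules and neighbouring sites are not independent. The median count at a listed flank site was 25, 27 and 21 reads. The order of the shares depended on depth and on the read minimum. With all libraries thinned to the smallest total the shares were 59.5%, 58.8% and 66.3%, and with a minimum of 10 reads they were 51.6%, 52.7% and 52.2%.

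Flanks stood far above the sequence within 1 kb of a protein-coding start, where 16.8%, 22.6% and 26.7% of motifs were listed. The difference was 45.4, 41.2 and 39.6 percentage points. Against motifs over 3 kb from any start, of which 59.2%, 59.1% and 59.0% were listed, flanks were higher by 3.02, 4.67 and 7.29 points, which fell to 1.02, 2.02 and 3.34 points with a minimum of 10 reads. In high CpG windows flanks were below distal motifs by 4.22 points in undifferentiated and 2.99 points in untreated cells. The treated difference there was 0.18 points, with an interval that included 0 (-1.70 to 2.09). Flanks were above distal motifs by 6.71, 7.49 and 8.49 points in low and by 6.86, 10.6 and 20.6 points in intermediate CpG windows. The flank to distal difference also changed sign in unmasked sequence, where flanks were below distal motifs by 10.8, 8.65 and 5.43 points. Flank motifs in masked sequence were listed at 44.7%, 44.8% and 45.4%.

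**Figure D1:**
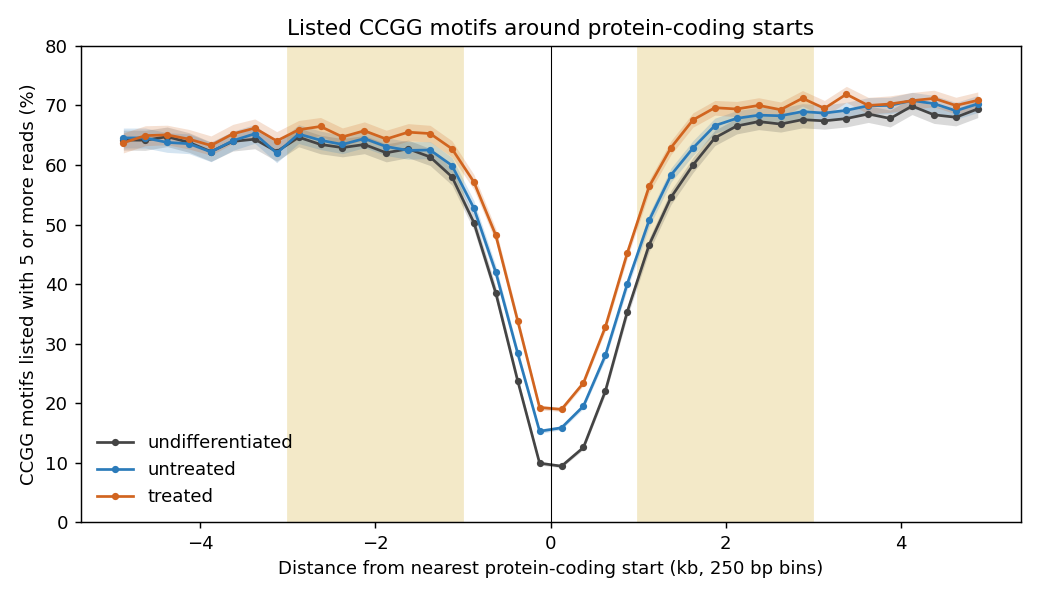
Percentage of CCGG motifs listed with 5 or more reads (y) by distance from the nearest protein-coding start (x, kb, 250 bp bins, upstream negative), with 95% Wilson intervals as bands, for the 3 libraries. The shaded 1 to 3 kb flanks hold the outer part of the trough around the start, and the downstream limb climbs over a longer distance than the upstream limb.

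The share listed depended on distance, and more so downstream than upstream. Between 1000 and 1250 bp downstream, 48.4%, 52.2% and 57.6% of the motifs were listed, compared with 67.7%, 69.0% and 71.1% between 2750 and 3000 bp. Upstream, the corresponding shares were 59.6%, 61.2% and 63.6% near the start and 65.3%, 65.6% and 66.1% at the far end. The nearest bin was therefore higher upstream than downstream by 11.2, 9.01 and 5.96 points, whereas the farthest bin was lower upstream by 2.49, 3.40 and 4.94 points. All 6 of these differences had 95% Newcombe intervals that did not include 0, which again cover counting error alone. CpG content moved along with distance, and high CpG windows held 12.8% of the motifs in the nearest downstream bin but 2.48% in the farthest.

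The change with distance was graded by the CpG class of the start itself. Flanks of starts with a high CpG core listed 42.5%, 46.2% and 52.8% of motifs between 1000 and 1250 bp, and 67.5%, 69.0% and 71.7% between 2750 and 3000 bp. At starts with an intermediate CpG core the shares were 58.1%, 61.0% and 66.1% near the start and 67.0%, 67.9% and 69.3% at the far end. Flanks of starts with a low CpG core listed 65.6%, 67.2% and 66.8% near the start and 65.6%, 65.9% and 65.8% at the far end, without a comparable change.

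Over the whole flank, upstream exceeded downstream by 1.65 points in undifferentiated cells (95% Newcombe interval 0.931 to 2.36) and by 0.17 points in untreated cells (-0.537 to 0.884), and was lower by 1.17 points in treated cells (interval of the difference -1.87 to -0.473). The treated value was 0.83 points with a minimum of 10 reads, and with 1 start per gene it was -0.54 points with an interval that included 0 (-1.31 to 0.233). In unmasked motifs the treated value was 2.56 points (1.82 to 3.30). The untreated value was 1.08 points with a minimum of 10 reads, 1.11 points with 1 start per gene and 3.73 points in unmasked motifs, with intervals above 0. Within CpG classes upstream was the lower side throughout. In low CpG windows the difference was -2.33, -2.91 and -3.06 points, in intermediate windows -4.07, -6.13 and -8.24 points, and in high CpG windows -0.97, -4.34 and -7.29 points, of which the first high CpG value had an interval that included 0 (-3.05 to 1.41). Masked sequence made up 21.6% of upstream and 11.7% of downstream motifs, and in unmasked low CpG windows the difference was 1.32, 0.26 and 0.23 points. The sign of the upstream to downstream difference depended on which motifs were compared.

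**Figure D2:**
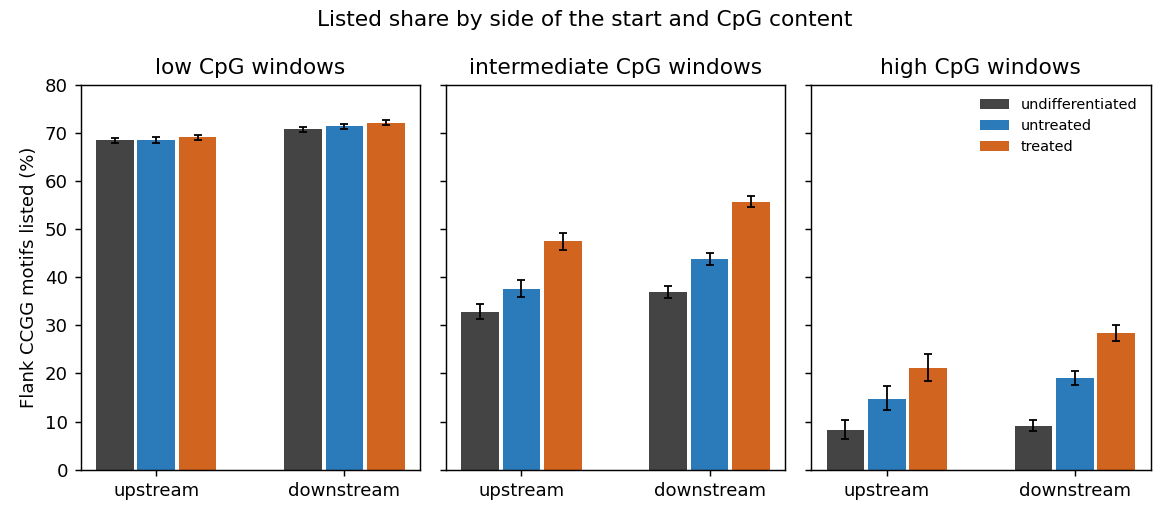
Percentage of flank CCGG motifs listed (y) upstream and downstream of the start (x) in low, intermediate and high CpG windows, with bars for the 3 libraries and 95% Wilson intervals. The treated bars stand highest in intermediate and high CpG windows on both sides, and the 3 bars nearly coincide in low CpG windows.

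The libraries differed by more points in the CpG-dense part of the flanks than elsewhere. Of 9811 motifs in intermediate CpG windows, 35.6%, 41.8% and 53.1% were listed, compared with 8.91%, 18% and 26.8% of 3444 motifs in high CpG windows. In low CpG windows the shares were 69.8%, 70.1% and 70.8% of 58986 motifs, and their order depended on depth. There the untreated minus undifferentiated difference was -1.77 points after thinning, and treated minus untreated was 5.47 points after thinning and -1.72 points with a minimum of 10 reads. The treated share exceeded the untreated one by 11.2 points where CpG content was intermediate and by 8.77 points where it was high. Both differences kept their direction with a minimum of 10 reads (5.96 and 3.40 points). After thinning they were 17.5 and 14 points, which is no check on them, because thinning lowered only the undifferentiated and untreated lists. The untreated share exceeded the undifferentiated one by 6.21 and 9.09 points, and these differences also kept their direction (4.00 and 4.30 points at 10 reads, 3.16 and 5.75 points after thinning). Intermediate CpG windows over 3 kb from any start differed less, with 28.7%, 31.2% and 32.5% listed, whereas distal high CpG windows listed 13.1%, 21% and 26.6%. Exons downstream of the start, in turn, listed 60.1%, 67.0% and 70.4% of motifs and downstream introns 62.9%, 63.7% and 66.6%. Within each CpG class exons were above introns in every library, by 76.2% against 70.4% at low, 49.3% against 31.4% at intermediate and 11.2% against 6.99% at high CpG content in undifferentiated cells, so the order of the pooled shares in these cells was not found within any class.

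The deposited lists also hold CCAGG and CCTGG sites, which are not CpG sites. Their counts were not compared between conditions, because lists share them. At 15696 of the 15706 flank CCAGG sites that the undifferentiated and untreated lists share (99.9%) the count was the same in both, and CCTGG counts were the same in the untreated and treated lists at all 15633 shared flank sites. The treated CCAGG counts were not such a copy, and equalled those of either other list at 655 of 13487 shared sites (4.86%). At CCGG sites shared by a pair of lists the count was the same at 2.76% to 3.33%.

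Most flank sites were listed in all 3 libraries (69.7%, against 72.5% of all autosomal CCGG sites). Sites listed in both day 7 libraries and not in undifferentiated cells numbered 3994, or 7.32% (all sites 6.37%). Sites listed only in treated cells numbered 4001, or 7.33% (all sites 5.43%), and only in untreated cells 1606, or 2.94% (all sites 2.95%). In the opposite direction, 2579 sites (4.73%, all sites 5.2%) were listed only in undifferentiated cells, 2461 (4.51%, all sites 4.57%) were missing only in treated cells and 1878 (3.44%, all sites 2.97%) only in untreated cells. The excess of sites gained in both day 7 libraries over sites listed only in undifferentiated cells depended on the read minimum, since with 10 reads these shares were 8.31% and 8.15%. After thinning to equal totals the sites missing only in treated cells made up 3.08% and those missing only in untreated cells 5.34%, the opposite order. Flanks lay between the promoter cores and the distal sites in the share listed only in treated cells, which was 23.2% of core sites and 4.01% of distal sites. Within the flanks this share was 4.77%, 21.8% and 38.1% at low, intermediate and high CpG content, respectively. It was 10.4% between 1000 and 1250 bp and 5.54% between 2750 and 3000 bp from the start. The flank sites listed only in treated cells had a median of 7 reads, near the minimum of 5. At low, intermediate and high CpG content, 33.76%, 34.05% and 20.96% of them had 10 or more reads. With a minimum of 10 reads the share listed only in treated cells was 7.41% over the flanks. Its values by CpG content and by distance were not examined at that minimum. Sites listed only in treated cells carried on average 0.98 other CpGs in their 30 bases, compared with 1.08 for sites listed only in untreated cells and 0.40 for sites in all 3 lists.

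**Figure D3:**
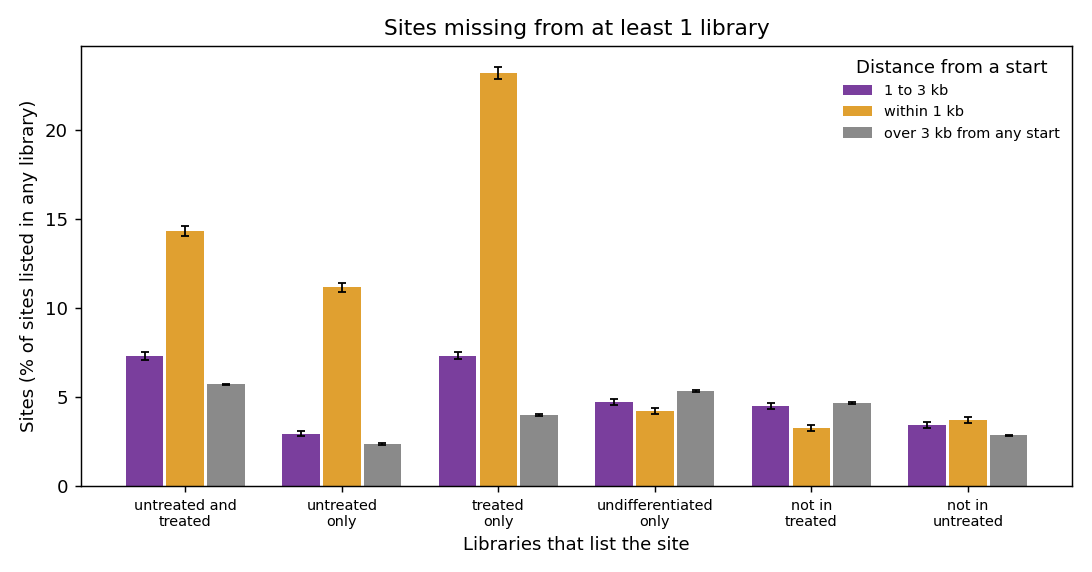
Percentage of sites listed in any library (y) for each incomplete combination of libraries (x), for sites 1 to 3 kb from a start, within 1 kb and over 3 kb from any start, with 95% Wilson intervals. The flank bars lie between core and distal bars for sites absent from undifferentiated cells, most clearly for sites found only in treated cells.

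At the 38032 flank sites listed in all 3 libraries, reads were compared after division by the total CCGG reads of each list. The median log2 ratio was 0.05 for untreated over undifferentiated, 0.09 for treated over undifferentiated and 0.05 for treated over untreated, against 0.09, 0.08 and -0.00 at distal sites. The first ratio lay above 0 on 18 of the 19 autosomes and the others on all 19, although these values are smaller than the shift between scalings. With the deposited RPM, which divides by the mapped reads, all ratios are lower by 0.33, 0.71 and 0.38 on the log2 scale, which makes the flank medians negative (-0.28, -0.61 and -0.33). On list reads the medians were 0.21, 0.99 and 0.61 at 181 sites in high CpG windows and 0.02, 0.31 and 0.21 at 2753 sites in intermediate windows. Since a scaling moves all sites alike, the differences between CpG classes do not depend on it.

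Reads were next summed over the flank sites of each gene. A site counted for the gene of its nearest start, so sites near different starts of a gene were pooled. Sites closer together than the length of a fragment were counted separately, although their reads may not be independent. Of 15857 protein-coding genes with a flank site, 3873 had at least 5 sites and 100 reads and were compared. A gene was called when its summed reads differed at least 2-fold with every unlisted site of the lower library set to 4 reads, so each fold below is a lower bound on the list-read scale. By this rule 42 genes were higher in untreated than undifferentiated cells (1.08%) and 78 lower (2.01%). Treated exceeded undifferentiated cells at 240 genes (6.2%) and were below them at 53 (1.37%). Treated exceeded untreated cells at 168 genes (4.34%) and were below them at 5 (0.129%). These counts depended on the scaling. Under the deposited RPM 8 genes were higher and 242 lower in untreated than undifferentiated cells, 34 higher and 771 lower in treated than undifferentiated cells, and 58 higher and 52 lower in treated than untreated cells. On raw counts the numbers were 89 and 30, 110 and 194, and 37 and 119. The balance of higher and lower genes therefore turned on raw counts in all 3 comparisons, and under the RPM in treated against undifferentiated cells.

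Of the genes compared, 28 (0.723%) were at least 2-fold higher in both day 7 samples than in undifferentiated cells, and 0 were under the deposited RPM. Pou5f1 was first among them, with 12, 106 and 77 reads at its 6 sites. This corresponded to at least 2.88-fold and 2.98-fold more in untreated and treated than in undifferentiated cells, and to a treated over untreated ratio of 1.03 with an exact interval of 0.761 to 1.40, which covers counting error alone and counts the reads of the neighbouring pair of sites as separate. Chac1, which encodes a glutathione-degrading enzyme, had 42, 144 and 102 reads. Its sites at 2876 and 2887 bp, closer together than a fragment, had 5, 38 and 25 reads each and may not be independent. Npas3, a neural bHLH-PAS transcription factor gene, had 10, 62 and 69 reads, and all 5 of its sites were listed in both day 7 samples against 2 in undifferentiated cells. Irf4, a lymphoid transcription factor gene, had 27, 105 and 132 reads, and Cavin1, a gene for a caveolar coat protein, had 33, 106 and 91. The Cavin1 sites at 2302 bp (9, 37 and 26 reads) and 2317 bp (12, 53 and 35 reads) are likewise closer than a fragment. C2cd4d, Chil5, Rgsl1, Trim63 and Rnf223 completed the 10 highest, with folds of at least 2.23 to 2.59 in the lower of the day 7 samples. Reads of all 10 were still higher in both day 7 samples under the deposited RPM, but none of them then reached 2-fold in both.

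At 21 genes (0.542%) both day 7 samples were at least 2-fold lower, compared with 174 under the deposited RPM. Cdk4, the gene for the kinase that drives exit from G1, had 193, 90 and 60 reads, of which an exonic site 1291 bp downstream held 148, 48 and 22. A neighbouring pair of its exonic sites, at 1091 and 1100 bp, went the other way with 0, 8 and 13 reads each. Cbx2, which encodes a Polycomb subunit, had 202, 84 and 66 reads, and its call rested on a site at -1658 bp with 117, 10 and 7 reads. Rbfox2, which encodes a splicing regulator, had 543, 267 and 146 reads. At Rbfox2 the sites differed among themselves. A site at -2636 bp (chr15:77309564) had 98, 97 and 61 reads, and an intronic site at 2241 bp (chr15:77151315) had 95, 14 and 0. These distances were measured from different annotated starts of the gene. Hesx1, a forebrain homeobox gene, had 191, 93 and 59 reads, and Dact3, a Wnt pathway inhibitor gene, had 296, 142 and 70. Tulp4, Zfp354b, Sec14l4, Def8 and Gmeb1 were the others of the 10 with the largest bounds. These 10 kept a bound of 2-fold under the deposited RPM, and on raw counts Gmeb1, Rbfox2 and Hesx1 fell just short of it (1.97 to 1.98).

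Genes that were lower in treated than in untreated cells included Klf2, Eif1, Mybl2 and Daxx. Klf2, a pluripotency-associated Krüppel-like factor gene, had 76, 87 and 12 reads, with a ratio of untreated to undifferentiated cells of 0.994 (exact interval 0.722 to 1.37) and treated cells at least 2.54-fold below untreated cells. Its exonic site at 1832 bp had 19, 51 and 7 reads and its 3′ UTR site at 1990 bp had 45, 27 and 5. Daxx, which encodes a chaperone of histone H3.3, had 241, 261 and 89 reads over 8 exonic sites, all of them listed in every library. Eif1, which encodes a translation initiation factor, had 109, 205 and 58 reads, and Mybl2, which encodes a cell cycle transcription factor, had 65, 96 and 22.

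Large bounds for treated over untreated cells were found at homeobox genes of the embryo. Dbx1, a homeobox gene of spinal interneuron progenitors, had 11, 18 and 185 reads, with 2, 3 and 11 of its 12 sites listed, and was at least 4.88-fold higher. Its sites lay in both flanks, and included a site at -1078 bp with 0, 0 and 39 reads and an intronic site at 2356 bp with 0, 0 and 27. The neighbouring homeobox genes Dlx5 and Dlx6 had 0, 18 and 94 reads over 5 sites and 0, 6 and 118 reads over 9 sites, with bounds of 4.46 and 4.42. Some sites of Dbx1, Dlx5 and Dlx6 lie closer together than a fragment, so their reads may not be independent. Examples are Dlx5 at 2552 and 2569 bp (18 treated reads each), Dlx6 at -2464 and -2457 bp (6 each) and Dbx1 at 1278 and 1282 bp (14 each). Zfp608, a zinc finger gene, had 35, 35 and 148 reads and a bound of 4.49. At these 4 genes undifferentiated and untreated cells were low together, and treated cells were above untreated cells under every scaling tried.

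**Figure D4:**
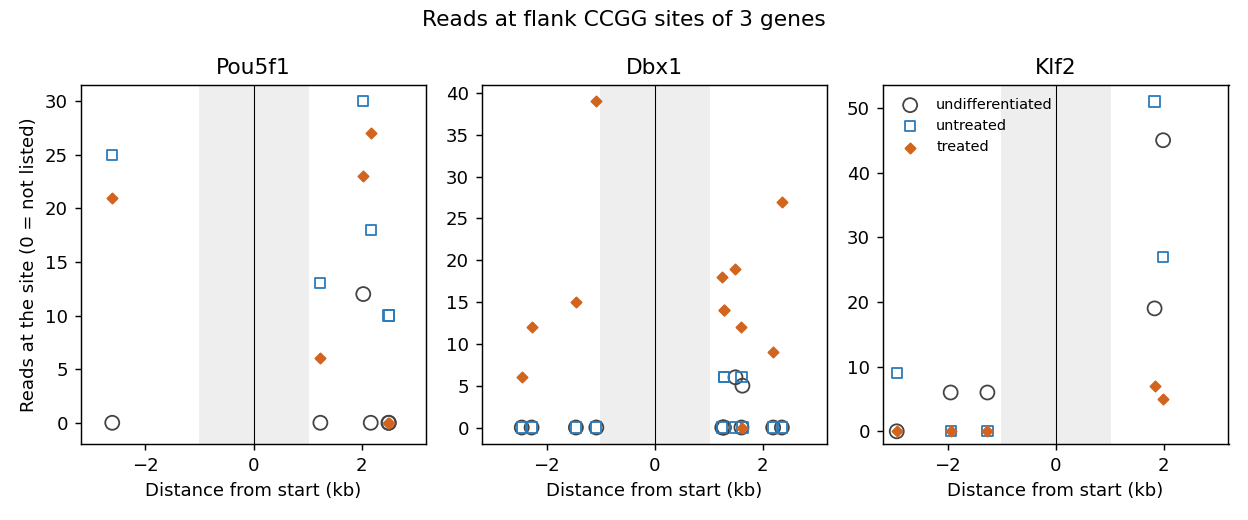
Reads at each flank CCGG site (y, 0 marks an unlisted site) by distance from the start (x, kb, upstream negative) for Pou5f1, Dbx1 and Klf2 in the 3 libraries, with the 1 kb around the start in grey. At Pou5f1 both day 7 samples lie above undifferentiated cells at 4 sites, at Dbx1 the treated sample lies highest at 11 of 12 sites, and at Klf2 it lies lowest at the exonic and 3′ UTR sites.

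Gene lists were described by their counts beside those of all 3873 genes compared, of which 6.2% were called higher in treated than undifferentiated cells and 4.34% higher in treated than untreated cells. The lists differed in CpG content, and none was compared with flanks of like CpG content. Whether a list differed from other flanks of its CpG content was therefore not tested. Of 39 Hox genes, the homeobox genes that pattern the body axis, 25 were compared. The Hox flanks had 142, 147 and 236 of 329 motifs listed (43.2%, 44.7% and 71.7%), which compares with 62.2%, 63.8% and 66.3% for all flanks. High CpG windows held 6.69% of the Hox flank motifs and 4.77% of all flank motifs. Treated cells were called higher than undifferentiated cells at 12 of the 25 Hox genes (6.2% of all genes) and higher than untreated cells at 10 (4.34% of all genes). No Hox gene was called in the other direction or between untreated and undifferentiated cells, calls that were made at only 0.129% to 2.01% of all genes. Summed Hox reads gave log2 ratios of -0.02 for untreated and 1.04 for treated over undifferentiated cells (-0.35 and 0.33 under the deposited RPM). Hoxd10 had 25, 29 and 122 reads, with 2, 3 and 8 of 8 sites listed, and Hoxc6 had 22, 74 and 140 reads with 2, 5 and 7 of 7 sites listed. Hoxc9 had 45, 63 and 167 reads and Hoxb4 had 12, 43 and 79. Hoxb9 was among those not called, with 118, 145 and 134 reads.

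Of 13 neural regulators compared, 6 were called higher in treated than undifferentiated cells (6.2% of all genes) and 6 higher in treated than untreated cells (4.34% of all genes), and their flank motifs were listed at 29.9%, 34.2% and 57.6%. High CpG windows held 22.94% of the neural flank motifs, compared with 4.77% of all flank motifs. Olig2, a gene of oligodendrocyte and motor neuron progenitors, had 14, 20 and 82 reads, with 1, 1 and 7 of 7 sites listed. Nkx6-1, a ventral neural tube homeobox gene, had 44, 66 and 176 reads, Gbx2, a gene of the midbrain-hindbrain boundary, had 21, 49 and 104, and Pax7 had 40, 38 and 148. Lhx2, with 264, 244 and 380 reads, was not called.

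Among 9 endoderm genes compared, 1 was called higher in treated than undifferentiated cells, near the 6.2% of all genes, and 4 higher in treated than untreated cells (4.34% of all genes). Their summed reads gave a treated over undifferentiated log2 ratio of 0.55 on list reads and -0.15 under the deposited RPM. Gata4, a factor gene of primitive endoderm and heart, had 61, 129 and 235 reads, and Foxa2, a definitive endoderm factor gene, had 91, 65 and 185. Of 13 trophoblast genes, 2 and 3 were called higher in the same comparisons, beside 6.2% and 4.34% of all genes, with Cdx2 at 20, 28 and 95 reads and Tfap2c at 43, 46 and 127. Here the summed log2 ratio of treated over undifferentiated cells was 0.30 on list reads and -0.41 under the RPM. At Cdx2, 8 downstream sites were listed in treated cells alone, each with 5 to 20 reads. Ascl2, a trophoblast factor gene that is also imprinted, was called lower in treated than undifferentiated cells, with 166, 102 and 59 reads, and the keratin gene Krt7 was called lower in untreated than undifferentiated cells, with 122, 58 and 84 reads. Trophoblast flank motifs were listed at 52.2%, 55.2% and 77.6%, a treated excess over undifferentiated cells of 25.4 points. At a minimum of 10 reads it was 8.21 points, with an interval that included 0 (-3.66 to 19.8).

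Genes of the retinoic acid pathway, of which 10 were compared, included 2 that were higher in treated than undifferentiated cells (6.2% of all genes) and 1 that was higher in treated than untreated cells (4.34% of all genes). Cyp26b1, which encodes a retinoic acid hydroxylase, had 97, 215 and 243 reads, and the receptor gene Rarg had 35, 97 and 104. Cyp26c1, a gene of the same hydroxylase family, had 48, 19 and 113 reads, and Rxrb, which encodes a retinoid X receptor, had 130, 319 and 190 and was called higher in untreated than undifferentiated cells. The receptor gene Rara, with 247, 219 and 197 reads, was not called. At these genes the direction of the summed treated over undifferentiated reads depended on the scaling, with a log2 ratio of 0.51 on list reads and -0.19 under the deposited RPM.

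**Figure D5:**
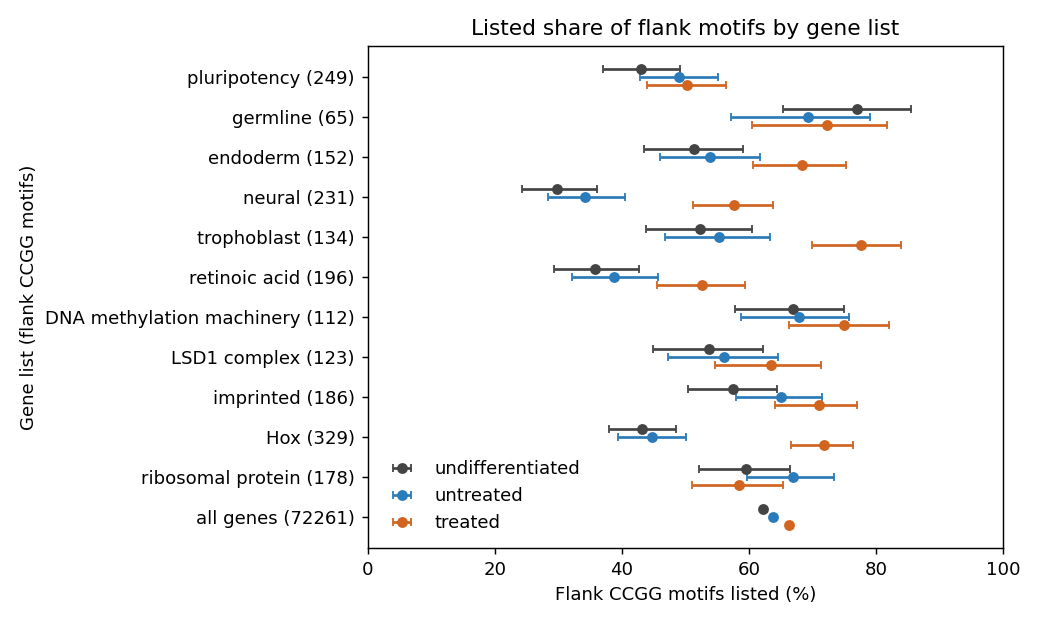
Percentage of flank CCGG motifs listed (x) in each gene list (y, number of flank motifs in brackets) for the 3 libraries, with 95% Wilson intervals. The treated sample lies apart from the other two in the Hox, neural and trophoblast lists, and the 3 samples overlap in the germline, DNA methylation machinery, LSD1 complex and ribosomal protein lists.

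Of 13 pluripotency genes compared, Pou5f1 was called higher in untreated and in treated than undifferentiated cells (1.08% and 6.2% of all genes), and Klf2 was called lower in treated than undifferentiated cells (1.37%) and than untreated cells (0.129%), with the values given above. Esrrb had 444, 412 and 283 reads, Klf4 had 97, 142 and 129, and Nr5a2 had 168, 234 and 160, and none of these orphan receptor and Krüppel-like factor genes passed 2-fold. Pluripotency flanks were listed at 43.0%, 49.0% and 50.2%. Of 13 imprinted genes, Phlda2 (64, 139 and 124 reads) and Slc22a18 (109, 200 and 211 reads) were higher in treated than undifferentiated cells, Ascl2 and Slc38a4 (188, 134 and 60 reads) were lower, and Dlk1 (46, 25 and 83 reads) and Igf2 (77, 59 and 126 reads) were higher in treated than untreated cells. Over all genes these 3 calls were made at 6.2%, 1.37% and 4.34%. None of 7 genes of the DNA methylation machinery, 8 genes of the LSD1 complexes or 2 germline genes was called, which at 6.2% or less of all genes called in each comparison does not set these short lists apart. Their reads included 337, 325 and 317 at Tet3, 157, 189 and 117 at Gse1, and 309, 288 and 159 at Tdrd12. Of 8 ribosomal protein genes, Rps10 was called higher in untreated than undifferentiated cells (1.08% of all genes), with 46, 132 and 79 reads.

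Some genes had flanks without any listed site. Of 5507 genes with at least 5 flank motifs, 169, 138 and 120 had none listed, 86 had none listed in any library, and 779, 824 and 862 had all motifs listed. No listed motif in undifferentiated cells and at least 3 in untreated cells was found at 11 genes, and at 29 genes for treated cells. Phldb1 had the most flank sites, 30 sites with 530, 644 and 573 reads, followed by Agap2 and Gramd1b with 27 sites each, where Agap2 had 90, 204 and 226 reads and Gramd1b 894, 1038 and 708. A single site near Gm10800 held 484319, 672396 and 439877 reads and was left out of the scaling, as were all sites over 10000 reads.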

How the data were processed

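MethylRAD libraries of undifferentiated, untreated and treated E14Tg2A ESCs were analysed, with 1 library each. The authors trimmed reads, kept those with an FspEI site, mapped them with at most 1 mismatch to the mouse genome, kept unique alignments and removed sites under 5 reads. Per the submitters' processing notes, Bowtie2 2.3.3 and FastQC 0.11.3 were used. The deposited files give for each site the count of reads and the RPM (reads per 1000000 mapped reads), which the authors computed from the same counts.

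CCGG sites were placed on GRCm38 by their deposited position and annotated with GENCODE M21 basic transcripts. A motif was listed when it had a count of 5 or more. Sums per gene were divided by the CCGG reads of the list in units of 1000000 reads (28.98, 33.37 and 23.42 in the undifferentiated, untreated and treated libraries), without sites over 10000 reads. Wilson and Newcombe intervals are at 95% and cover counting error only. Ratios of summed reads have exact intervals, which likewise cover counting error only. With 1 library per condition, no test between conditions was made. Named genes were the 10 with the largest bounds in both day 7 samples in each direction, the 5 with the largest bounds between treated and untreated cells in each direction, and from each list the called genes and up to 3 others with the most sites. The sites, gene lists and rules were chosen with earlier results of these data known. Alternatives were another read minimum, thinning, 1 start per gene, CpG class, sites near 1 gene, scaling and gene filters. Functions were tested on simulated data. Sites with substitutions, insertions or deletions, sex chromosomes, and CCAGG and CCTGG sites, whose counts are in part shared between the deposited lists, were not compared, and some results that the rule for named genes would include are not reported here. Computations were run in Python 3.11.15 with pandas 2.3.3, numpy 2.4.6 and SciPy 1.17.1, and plots were drawn with matplotlib 3.10.9.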

Additional observations from a re-analysis of the deposited data

Results flagged for a closer look

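A difference between the lists outside the main measurement was found at CCAGG sites, which are not CpG sites. The treated list held 51535 CCAGG sites in promoter flanks, compared with 15706 in the undifferentiated and 15707 in the untreated list. The undifferentiated and untreated lists gave the same count at 15696 of their 15706 shared CCAGG flank sites. CCTGG sites numbered 15635, 15634 and 15635 in the undifferentiated, untreated and treated lists and shared their counts at 99.9% to 100% of sites. With entries shared in this way between lists, how these columns were filled is not known, and the difference at CCAGG sites was not read as one between conditions.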

How the results depend on the processing

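No paired analysis was possible because each condition had 1 library and the labels give no replicate numbers, and for the same reason no library could be left out. Values below are in the order undifferentiated, untreated and treated, and for comparisons in the order untreated over undifferentiated, treated over undifferentiated and treated over untreated. The cause of each change was not tested. Restricting to sites near 1 gene kept the direction of the side differences and median ratios, and kept each count of genes within 1.5 times. It also kept the direction at the 30 genes named by the size of their bounds, whereas genes named only from the lists were not examined this way. Because a site under 5 reads is not listed, depth limits the listed shares in every CpG class. At intermediate and high CpG content the differences kept their direction, but several changed by over 1.5 times.

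With a minimum of 10 reads the listed share was 51.6%, 52.7% and 52.2%, the upstream minus downstream difference 2.45, 1.08 and 0.83 points (reversed in treated cells), and the flank minus distal difference 1.02, 2.02 and 3.34 points. The shares of sites were then 62.3% in all lists, 8.31% in both day 7 lists, 4.42% in untreated only, 8.15% in undifferentiated only, 6.53% missing in treated and 2.87% missing in untreated cells. Treated minus undifferentiated was 0.67 points and treated minus untreated -0.43, and in low CpG windows -1.28 and -1.72, which are reversals apart from the first value. The 3 comparisons gave 4.00, 9.96 and 5.96 points at intermediate and 4.30, 7.69 and 3.40 points at high CpG content. The trophoblast list showed 8.21 points for treated over either other sample, with an interval that included 0 (-3.66 to 19.8).

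Thinning brought the undifferentiated and untreated lists down to the treated total, so a treated excess in listed share could not shrink by it. After thinning, the listed share was 59.5% in undifferentiated and 58.8% in untreated cells, and the flank minus distal difference in these libraries 2.46 and 3.46 points. The 3 comparisons gave -0.74 (reversed), 6.77 and 7.51 points over all flank motifs, -1.77 (reversed), 3.70 and 5.47 points at low, 3.16, 20.7 and 17.5 points at intermediate and 5.75, 19.7 and 14 points at high CpG content. The shares of sites were 66.7% in all lists, 2.13% in untreated only, 10.0% in treated only, 5.25% in undifferentiated only, 3.08% missing in treated and 5.34% missing in untreated cells. The Hox list differed by 34.3 points between treated and untreated cells. Median log2 ratios were 0.0505 for treated over undifferentiated and -0.012 (reversed) for treated over untreated cells.

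With 1 start per gene the listed share was 61.3%, 62.9% and 65.6%, and upstream minus downstream 2.87, 1.11 and -0.54 points. In low CpG windows the listed share was 69.8%, 70.1% and 70.8% and the side difference -2.33, -2.91 and -3.06 points, the first and second of which are reversed. Comparisons of unmasked motifs were chosen after seeing the data, as were the library differences by CpG class, the flank minus distal alternatives and those of the gene lists. Unmasked motifs had a listed share of 65.5%, 67.4% and 70.2%, a side difference of 5.65, 3.73 and 2.56 points and a flank minus distal difference of -10.8, -8.65 and -5.43 points, and in unmasked low CpG windows the treated side difference was 0.23 points.

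Median log2 ratios were -0.28, -0.61 and -0.33 under the deposited RPM, 0.25, -0.21 and -0.46 on raw counts, and -0.0446, 0.0165 and 0.0663 with distal sites centred. Genes called higher and lower for untreated over undifferentiated, treated over undifferentiated, treated over untreated cells and both day 7 samples numbered 8 and 242, 34 and 771, 58 and 52, and 0 and 174 under the RPM. On raw counts they numbered 89 and 30, 110 and 194, and 37 and 119 for the first 3 comparisons. With at least 3 sites and 50 reads they numbered 207 and 358, 618 and 324, 326 and 31, and 153 and 178, and with no gene filter 1079 and 1665, 1963 and 1564, 1271 and 394, and 748 and 981. With unlisted sites at 0 and 5 reads added, 105 genes were higher in untreated than undifferentiated cells, 87 higher in both day 7 samples and 11 lower in treated than untreated cells.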
